A study of Mus musculus and Homo sapiens with 22 samples.

Results

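The genes described here start between 40 and 60 Mb of mouse chromosome 1 (GRCm38), a segment that was picked because the window medians of expression were raised in mouse embryonic stem cells (mESCs) with a Mettl3 knockout (KO) against wild-type cells (WT). Members are the genes with their lower coordinate in the segment and a mean of at least 10 counts over the 6 RNA-seq libraries, with Nduf genes left out. Of 336 listed genes that start there, 135 had 0 counts in every library and 111 a mean below 10, and 1 Nduf gene was left out. This left 89 members among the 15620 genes of the series that reached this mean. All 89 could be tested, and 78 of them were protein coding, 5 were unverified transcribed regions (TEC), 3 processed pseudogenes, 2 lincRNAs and 1 a sense intronic RNA. Because the segment was chosen on the contrast of KO with WT, every value of that contrast below is a description and supports nothing further.

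Genes that neighbour each other on a chromosome need have nothing in common in what their proteins do. This segment holds receptor, transporter, chaperone, splicing, DNA repair and cell death genes side by side. N6-methyladenosine (m6A) is placed on mRNA by a methyltransferase complex whose catalytic subunit is METTL3, mostly in the sequence context DRACH (A, G or T, then A or G, then the methylated A, then C, then A, C or T), and it is known to shorten the life of many transcripts, in embryonic stem cells among them.

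Read counts per gene were analysed for 3 WT and 3 Mettl3 KO mESC libraries made from poly(A)+ RNA, and m6A sites were taken from 1 list of WT mESCs and 1 of purchased mouse heart RNA at 1 µg. Both mESC genotypes came from an earlier publication and were cultured with serum and leukaemia inhibitory factor. The sources used here do not say whether the KO is 1 clone, nor how the WT and KO lines are related. The site lists were made with miCLIP2, which crosslinks an m6A antibody to RNA and reads the modified base from truncated cDNAs, followed by the classifier m6Aboost.

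Gene counts per library lay between 22746733 and 27254245. Mettl3 itself had counts of 560, 698 and 612 (WT replicates 1 to 3) against 462, 669 and 457 (KO), the order of replicates used for all counts below, a log2 fold change of −0.50 (SE 0.14) that was not called. Counts over the whole gene cannot show whether a part of it is missing. The lines also differed on chromosome Y, whose genes summed to 3.35 to 7.51 CPM (gene counts scaled to a common library size with TMM factors) in the WT and 231.8 to 242 CPM in the KO libraries. The 12 pluripotency markers were all expressed and summed to 5675 to 6085 CPM in WT and 4189 to 4359 CPM in KO. Of 12 fibroblast markers, which feeder cells would bring, Col1a2, Dcn, Lum, Postn and Prrx1 lay below a mean of 10 counts, and the list summed to 118 to 217 CPM in WT and 158 to 206 CPM in KO. Most of this sum was Fbln1 (142 and 117 CPM), and of 7 tested genes Fbn1 and Thy1 were called higher and Pdgfrb lower. The 10 primitive endoderm markers summed to 420 to 449 CPM and 409 to 435 CPM, and the 8 neural markers to 71.3 to 117 CPM and 101 to 125 CPM. These sums hide called differences in single markers. Sparc makes up most of the endoderm sum, while Dab2 (5.05, SE 0.20), Foxa2 and Col4a1 were called higher and Gata4 (−1.59, SE 0.31) and Lama1 lower. Of the neural markers, Olig2 (0.0127 CPM in WT, 9.41 CPM in KO) and Map2 (1.59, SE 0.28) were called higher. Of the 12 pluripotency markers, 4 were called lower, Dppa5a, Tdgf1, Utf1 and Tfcp2l1, and the rest, among them Pou5f1, Nanog and Sox2, were not called. Over all genes tested, 17.1% were called higher and 12.6% lower. In such bulk libraries, fewer cells of a type and less RNA per cell cannot be told apart.

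The m6A sites of the members are a readout that the choice of the segment did not use. WT mESCs had 95 predicted sites in exons of 29 members. Fzd7, a Wnt receptor encoded by a single exon, held 17 of them, followed by the zinc importer gene Slc39a10 with 7, Sgo2a with 6, and Ercc5 and Orc2 with 5 each. Of the 95 sites, 52 lay in coding sequence, 37 in 3′ UTRs, 5 in 5′ UTRs and 1 in a transcript without a coding sequence, and 27 were within 200 nt of a stop codon. The windows of 21 nt below are shown to let the sites of members discussed later be compared. They were read from the RefSeq GRCm38 genome on the strand of the gene, run 5′ to 3′, and carry in capitals the 5 bases centred on the predicted m6A. The sites shown for Fzd7 lay in its coding sequence (chr1:59483398-59483418, plus strand, score 0.894) and 68 nt past its stop codon (chr1:59484736-59484756, score 0.893). The others are from Nop58 (chr1:59705692-59705712, plus strand, 0.893), Hspd1 (chr1:55078336-55078356, minus strand, 0.904) and Gtf3c3 (chr1:54397793-54397813, minus strand, 0.728), the last of which falls outside DRACH.
Fzd7, coding sequence: cgctgcgaGAACTtcccagtg
Fzd7, 3′ UTR: tagggagaGAACTgctgggtg
Nop58, coding sequence: ctaaatatGGACTtatttatc
Hspd1, coding sequence: gaagagaaGGACCctggaatg
Gtf3c3, 3′ UTR: taaaaatgGTACTgtcatcac

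In all, 90 of the 95 sites (94.7%) matched DRACH, against 92.3% of the 1253 other exonic sites of chromosome 1. The pentamer GAACT was found at 18 sites and GGACT at 16 (16.8%, against 21.4% of the other sites of the chromosome). The share in 3′ UTRs was 38.9% in members and 45.5% elsewhere on the chromosome. Sequence and transcript region are themselves features that m6Aboost uses. The median score was 0.719 in members and 0.746 over all exonic sites of the list. 53 of the 95 sites (55.8%) had the same position in the heart list, against 59.7% of all exonic mESC sites. Heart RNA gave 202 sites in 42 members, of which 25 also had an mESC site.

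An mESC site was listed for 32.6% of the members and for 42.1% of the 15400 other genes that reached the count limit, were placed on the genome and could be tested. The median of the mean counts was 579 in members and 415 in the other genes. Since the sites come from WT RNA and members were picked for higher counts in KO, shares were compared at like mean counts over the WT libraries, a choice made after seeing the data. The share was 26.9% of 26 members against 37.2% of the other genes at 100 to 500 counts, 66.7% of 21 against 70.9% at 500 to 2000 counts and 61.5% of 13 against 82.2% above 2000 counts. Between 10 and 100 counts, 0 of 21 members and 2.06% of the other genes had a site. Neighbouring genes are not independent of each other, and these shares were not tested.

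Expression of the members was higher in KO in most cases. The median log2 fold change of KO over WT was 0.61, a fold of 1.52, with quartiles of 0.21 and 1.26, and 75 of 89 members (84.3%) had a value above 0. Over the other 15400 genes the median was −0.02 and 48.5% lay above 0. By edgeR's quasi-likelihood test at an adjusted p of at most 0.01, 41 members (46.1%) were called higher, where 17.1% of all 15731 genes tested were, and 2 were called lower, where 12.6% were. The CPM of all KO libraries exceeded those of all WT libraries for 56 members (29.2% of all genes tested) and lay below them for 7 (26.9% of all genes), while the ranges overlapped for 26. Values spread widely, from −2.17 for Aox3 to 4.17 for Col5a2. Some members with large rises, among them Col5a2, Slc40a1 and Fhl2, reached the mean of 10 counts only through their KO libraries. The limit on the mean over WT and KO thus favours large rises at low WT level.

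The difference was present in each KO library. Members took 0.410, 0.450 and 0.419% of all gene counts in the WT libraries (0.426 ± 0.0211%, SD, n = 3) and 0.605, 0.619 and 0.628% in the KO replicates (0.617 ± 0.0113%). On the log2(CPM + 0.1) scale, taken as the difference from the WT mean of each gene, the median of the members was −0.02, −0.01 and 0.02 in WT and 0.52, 0.53 and 0.65 in KO. All 3 KO medians lay above the WT medians, which the subtraction of the WT mean holds near 0. The same median over the genes of both flanks, 20 to 40 Mb and 60 to 80 Mb, was 0.09, 0.22 and 0.21 in KO, and over the other genes it lay within 0.01 of 0 in every KO library. In KO libraries 74, 70 and 74 of the 89 members lay above their WT mean.

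**Figure D1:**
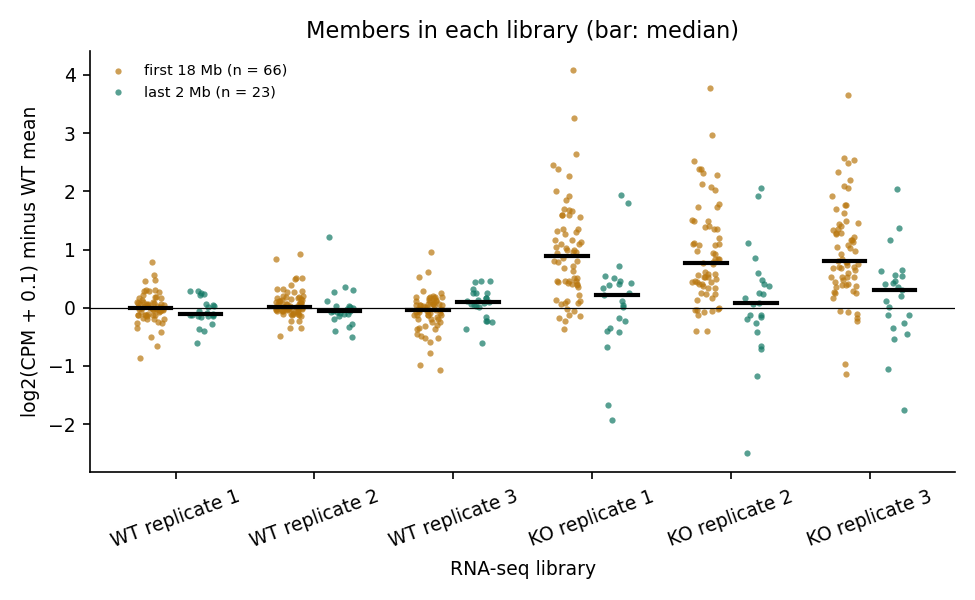
Each point is 1 of the 89 members in 1 of the 6 RNA-seq libraries, plotted as the difference of its log2(CPM + 0.1) from its WT mean, with members starting before 58 Mb (the first 18 Mb, n = 66) and after it (the last 2 Mb, n = 23) side by side and black bars for medians. The medians of the first 18 Mb lie between 0.78 and 0.90 in KO, and those of the last 2 Mb between 0.08 and 0.31.

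Change was not even along the segment. In windows of 2 Mb, the 3 members between 40 and 42 Mb had a median log2 fold change of 2.45 and all were called higher. The medians were 0.65 (9 members) at 42 to 44 Mb, 0.59 (9 members) at 44 to 46 Mb and 0.21 (3 members) at 46 to 48 Mb. The windows thus came down over the first 8 Mb. No member starts between 46.8 and 51.5 Mb. Beyond this gap the median was 0.66 (5 members) before 52 Mb, and it was 1.13 at 52 to 54 Mb, where all 15 members had values above 0 and 13 were called higher. It was 0.73 (14 members) at 54 to 56 Mb and 0.93 (8 members) at 56 to 58 Mb. In the last window, 58 to 60 Mb, the median of 23 members was 0.25, with 3 called higher and 2 lower. Over all genes tested, 17.1% were called higher and 12.6% lower. Before 58 Mb, 60 of 66 members lay above 0, 38 were called higher, with a median of 0.85, and both members called lower start after 58 Mb.

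**Figure D2:**
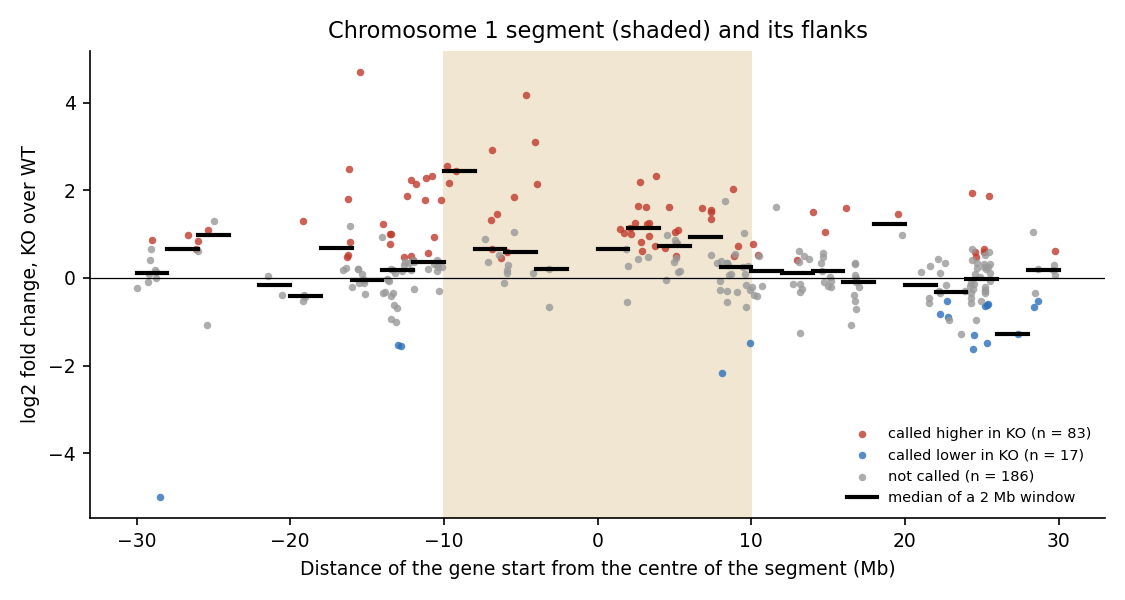
The log2 fold change of KO over WT of each gene that reached the count limit is plotted against the distance of its start from the centre of the segment, in Mb, for the shaded segment and 20 Mb on each side. Red and blue points are genes called higher (83) and lower (17), grey points are not called (186), and black bars are medians of 2 Mb windows, which are above 0 in every window of the segment that holds genes and reach 2.45 at its left end.

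The flanks differed from each other. The 89 genes at 20 to 40 Mb had a median of 0.22, with 28 called higher and 3 lower. The 108 genes at 60 to 80 Mb had a median of −0.03, with 14 higher and 12 lower. Of all genes tested, 17.1% were called higher and 12.6% lower. The median of the members exceeded that of both flanks together, 0.16, by 0.44. Close to the edges the medians were nearer to those of the segment. The 49 genes at 35 to 40 Mb had a median of 0.29 and the 26 genes at 60 to 65 Mb one of 0.35. The lower edge thus lies in a stretch whose windows were already above the median of all genes, and the last 2 Mb before the upper edge had a lower median than the 5 Mb past it.

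Single genes at the edges were mixed. Outside the lower edge, D930019O06Rik had −0.29 (SE 0.44) and Map4k4, a kinase of stress signalling, 0.25 (SE 0.14), neither called, whereas the low-count gene 1700066B17Rik (counts of 4, 6 and 2 in WT, 17, 19 and 14 in KO) was called higher at 1.78 (SE 0.42). Inside it lie Il1r1, Il1rl2 and Mfsd9, all called higher. The last members before 60 Mb are Bmpr2 (0.27, SE 0.12), Fam117b (−0.27, SE 0.13) and the unverified transcribed region Gm37531, which lies within Fam117b on the same strand and was called lower (−1.48, SE 0.34). Past it follow Wdr12 (−0.20, SE 0.12), Carf (0.76, SE 0.17, called higher) and Nbeal1 (−0.39, SE 0.12). Just above a mean of 10 counts were Gm37626 (1.05), Aox2 (1.75) and Gm17971 (0.87), and just below it Gm29453 (0.43) and the untested Snord70 and Gm37607.

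Among 138 windows of 20 Mb with at least 20 genes on the autosomes and chromosome X, the segment had the highest median, which is what it was picked for. The next were chromosome 18 from 80 Mb (0.49, 29 genes) and chromosome 6 from 140 Mb (0.39, 54 genes). The lowest were chromosome 3 from 140 Mb (−0.74, 63 genes) and chromosome 8 from 80 Mb (−0.61, 160 genes). Both lie at least as far from 0 as the segment does.

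**Figure D3:**
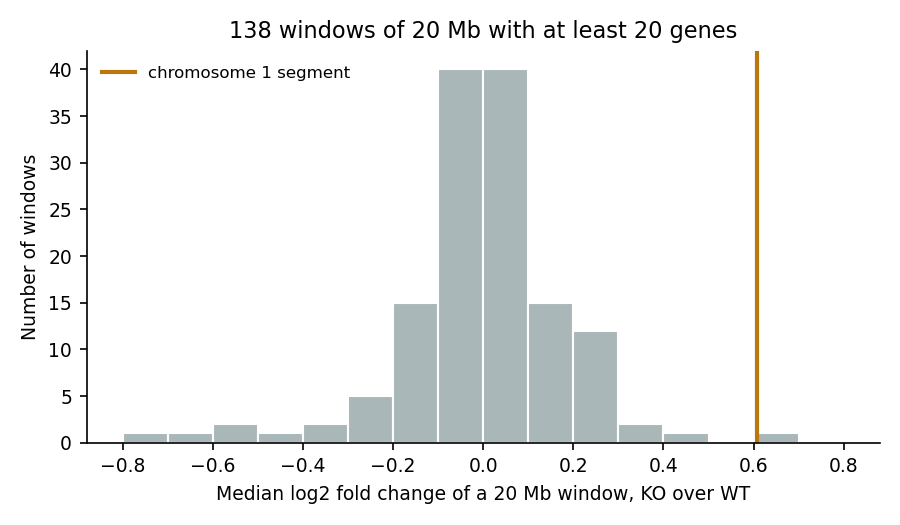
Histogram of the median log2 fold change of KO over WT in 138 windows of 20 Mb with at least 20 genes, in bins of 0.1, with the number of windows on the vertical axis. The orange line marks the chromosome 1 segment at 0.61, to the right of all other windows, which lie between −0.74 and 0.49.

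The highest log2 fold change belonged to Col5a2 (ENSMUSG00000026042.16, chr1:45374321-45503282, minus strand), which encodes a chain of the fibrillar collagen type V. Its counts were 10, 6 and 6 (WT) against 175, 166 and 139 (KO), that is 0.328 ± 0.128 and 5.90 ± 0.951 CPM (SD, n = 3). The groups did not overlap, and the log2 fold change was 4.17 (SE 0.33). Col5a2 met the count limit only through its KO libraries, a filter that favours large rises. Its neighbour Col3a1 stayed below a mean of 10 counts. Of the other fibrillar collagen chains, Col2a1 rose by 1.05 (SE 0.27), while Col5a1 (−0.77, SE 0.20), Col1a1 (−0.81, SE 0.34) and Col11a1 (0.63, SE 0.23) were not called and Col1a2 was too low to be tested. Of the fibroblast markers, the matrix gene Fbn1 (2.54, SE 0.33) and Thy1 (1.19, SE 0.23) were also called higher, Twist1 had 1.26 (SE 0.35, not called), Pdgfrb was called lower (−0.88, SE 0.20), and the median of the 7 tested was 0.60. The part of such cells in the value of Col5a2 was not tested.

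Slc40a1 (chr1:45908068-45926523, minus strand), the iron exporter ferroportin, had counts of 5, 8 and 8 (WT) against 94, 65 and 58 (KO), and rose by 3.11 (SE 0.37). It too met the count limit only through its KO libraries. Slc39a10, which brings zinc into the cell, is far more abundant and had 120.6 CPM in WT and 139.7 CPM in KO (0.21, SE 0.10, not called). Both transporters had KO libraries above all WT libraries, but by very different amounts. Among iron and zinc genes encoded elsewhere, only Slc39a14 of 5 was called (1.42, SE 0.18), and the transferrin receptor gene Tfrc had −1.17 (SE 0.43).

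The interleukin receptor cluster opens the segment. Il1r1 (chr1:40225080-40317257, plus strand), the signalling receptor of interleukin-1, had counts of 17, 20 and 4 (WT) against 59, 138 and 93 (KO) and rose by 2.55 (SE 0.44). Il1rl2, the receptor of interleukin-36 cytokines, had counts of 17, 18 and 10 (WT) against 58, 103 and 83 (KO) and rose by 2.17 (SE 0.31). Neither gene overlapped between groups, although levels were low throughout. Il1r2, Il1rl1, Il18r1 and Il18rap, the other genes of the cluster, were below a mean of 10 counts, as were the sodium-proton exchanger genes Slc9a2 and Slc9a4 beside them. Downstream of the receptor, Traf6 (1.31, SE 0.14) and Irak1 (0.51, SE 0.10) rose, and Myd88 (−0.08), Irak4 (−0.23) and the coreceptor gene Il1rap (0.87) were not called.

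Next to this cluster lies Mfsd9 (chr1:40772038-40790687, minus strand), of the major facilitator family of transporters. It had the highest log2 fold change among the 66 members with a mean of at least 100 counts. Its counts were 46, 81 and 31 in WT and 305, 346 and 358 in KO, 2.24 ± 0.812 and 12.3 ± 0.794 CPM (SD, n = 3), and it rose by 2.45 (SE 0.26). The next 9 were likewise all called higher and all with KO above WT in every library. Inpp1, a phosphatase of inositol phosphates, rose by 2.19 (SE 0.24), Casp8 by 2.02 (SE 0.22), Gulp1, an adaptor of apoptotic cell engulfment, by 1.86 (SE 0.21) and Mfsd6 by 1.65 (SE 0.24). Ankrd44, 1700066M21Rik, Maip1 and Nck2 had values between 1.46 and 1.63. 6 of the 10 start between 52 and 58 Mb, Mfsd9, Nck2 and Gulp1 start before the gap, and Casp8 starts after 58 Mb.

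The stretch that follows the gap holds a dense run of called genes. Nabp1, a single-stranded DNA binding protein of the DNA damage response, had counts of 746, 1042 and 980 (WT) against 2256, 2541 and 2379 (KO) and rose by 1.12 (SE 0.12). All KO libraries lay above all WT libraries. Further along, Nab1, a corepressor of EGR factors, rose by 1.26 (SE 0.16), Hibch, of valine breakdown, by 0.83 (SE 0.12), Asnsd1 by 1.26 (SE 0.14) and Osgepl1, of mitochondrial tRNA modification, by 0.97 (SE 0.13). Hecw2, a ubiquitin ligase gene at the end of the run, had counts of 32, 29 and 22 (WT) against 168, 189 and 144 (KO) and rose by 2.33 (SE 0.25).

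Stat4, a transcription factor of cytokine signalling, lies in this run and had counts of 125, 177 and 116 (WT) against 138, 252 and 209 (KO), and its ranges overlapped (0.26, SE 0.21). Of the STAT genes encoded elsewhere, Stat3 (−0.78, SE 0.10), Stat5a (−1.19, SE 0.24) and Stat2 (−0.45, SE 0.10) were called lower and Stat6 (0.43, SE 0.11) higher.

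Of 7 listed mitochondrial members, 4 were called higher (17.1% of all genes tested) and 3 were not called. Hspd1 (chr1:55077835-55088243, minus strand) and Hspe1 encode the chaperonin and cochaperonin of the mitochondrial matrix and share a promoter region. Hspd1 had counts of 11477, 14864 and 15845 (WT) against 26546, 32260 and 28591 (KO), 619 ± 113 and 1067 ± 18.7 CPM (SD, n = 3), and rose by 0.79 (SE 0.14). Hspe1 had counts of 2725, 3166 and 3134 (WT) against 4401, 4286 and 6006 (KO) and overlapped slightly in CPM. It was not called (0.45, SE 0.16), though it was with the replicate block (0.43, SE 0.10). The pair is at the top of the segment by level, at 234 and 89.8 CPM per kb of exon in WT, and both have annotated pseudogene copies that could share their reads. The 6 other mitochondrial chaperone and protease genes had values between −0.14 and 0.45 and were not called, among them Hspa9 (−0.08, SE 0.12). Of 5 other mitochondrial members, 3 were called higher, among them Coq10b (1.05, SE 0.12) and Hibch, and Mrps9 (0.36, SE 0.10) and Nif3l1 (0.34, SE 0.19) were not.

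The splicing and ribosome assembly genes of the segment had values between −0.55 and 0.37 and were not called by the edgeR fit used above. Sf3b1, the core subunit of the SF3b complex that recognises branch points, had counts of 14194, 14574 and 12164 (WT) against 20549, 21208 and 21439 (KO) (0.37, SE 0.12, not called), with KO above WT throughout. Clk1, a kinase of SR splicing factors, had counts of 4740, 5398 and 3111 (WT) against 3543, 3419 and 3725 (KO) (−0.55, SE 0.16, not called), with KO below WT in CPM. Ppil3, a spliceosomal prolyl isomerase, had 0.34 (SE 0.15). Sf3b1 and Clk1 lay on opposite sides of 0. With the replicate block, Sf3b1 was called higher (0.37, SE 0.10) and Clk1 lower (−0.53, SE 0.12). Clk1 was also called lower by DESeq2, without the filter on low counts and without WT replicate 3. Elsewhere, 2 of 9 related genes were called lower (12.6% of all genes tested), Sf3b3 (−0.74, SE 0.11) and Clk3 (−0.80, SE 0.12). Nop58, the box C/D snoRNP core protein, had counts of 5557, 7361 and 6165 (WT) against 6175, 7160 and 6929 (KO) (−0.17, SE 0.10), and Wdr75, of pre-rRNA processing, had 0.10 (SE 0.12). Their 7 partners ranged from −0.75 to −0.02, with Utp4 and Bop1 called lower.

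Of 5 members that act in DNA replication, repair and chromosome cohesion, 2 were called higher (17.1% of all genes tested). Pms1, a mismatch repair protein, had counts of 762, 935 and 803 (WT) against 2260, 2045 and 2627 (KO) and rose by 1.22 (SE 0.13), and Nabp1 was given above. The origin recognition subunit gene Orc2 (0.29, SE 0.14), the excision repair nuclease gene Ercc5 (0.29, SE 0.17) and Sgo2a (−0.08, SE 0.11), a protector of centromeric cohesion with a close paralogue on chromosome 8, were not called. Of 11 partners outside the segment, 6 were not called, and 4 were called lower (12.6% of all genes tested), among them Pms2 (−0.88, SE 0.12), Orc6 (−0.74, SE 0.14) and Ercc1 (−0.63, SE 0.16), and 1, Ercc4, was called higher (1.18, SE 0.11).

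Casp8 and Cflar lie next to each other and encode the initiator caspase of death receptors and its inhibitor. Casp8 (chr1:58795374-58847503, plus strand) had counts of 41, 82 and 60 (WT) against 256, 327 and 296 (KO), 2.63 ± 0.619 and 10.7 ± 0.463 CPM (SD, n = 3), and rose by 2.02 (SE 0.22). Cflar had counts of 167, 225 and 208 (WT) against 220, 308 and 239 (KO), with overlapping CPM (0.09, SE 0.17). The adaptor gene Fadd (1.59, SE 0.24) and Ripk1 (1.17, SE 0.23), which act beside Casp8, rose as well, and Casp9 (−0.88, SE 0.12), the initiator caspase of the mitochondrial pathway, was called lower. Casp8 was among the 3 of 23 members after 58 Mb that were called higher.

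The aldehyde oxidase cluster holds the member with the lowest value. Aox3 had counts of 52, 43 and 70 (WT) against 17, 10 and 17 (KO), without overlap, and fell by 2.17 (SE 0.38). Beside it, Aox1 had counts of 37, 65 and 34 (WT) against 56, 76 and 78 (KO) (0.39, SE 0.26) and Aox2 1, 11 and 1 against 17, 22 and 13 (1.75, SE 0.62). Neither was called, and Aox4 was below a mean of 10 counts. All 3 were weakly expressed, and reads of these similar genes could be split between them. The other member called lower was Gm37531, with counts of 43, 35 and 35 (WT) against 9, 20 and 20 (KO). Among members with a mean of at least 100 counts, the 10 lowest ranged from −0.55 (Gm8420, a processed pseudogene, and Clk1) to −0.05 (Pgap1) and were not called. Tmem237, Bzw1, Kctd18, Fam117b, Nop58, Tpp2 and Sgo2a lay between them, and 5 of the 10 start after 58 Mb.

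4 of 5 members of the transcription and chromatin list were called higher, where 17.1% of all genes tested were. The segment was picked on this contrast, so this share describes the list only. Fhl2, a LIM domain cofactor, had counts of 1, 4 and 5 (WT) against 34, 33 and 26 (KO) and rose by 2.93 (SE 0.45). It met the count limit only through its KO libraries, a filter that favours large rises. Gtf3c3, a subunit of the RNA polymerase III factor TFIIIC, had counts of 1430, 1479 and 1580 (WT) against 2647, 2885 and 3083 (KO) and rose by 0.67 (SE 0.12). Nab1, given above, was called higher as well. Groups were separate for these genes, and Pou3f3 was not called (0.88, SE 0.41). The other TFIIIC subunit genes Gtf3c1, Gtf3c2, Gtf3c4 and Gtf3c5 lay between −0.23 and 0.20 and were not called.

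Adaptor and trafficking genes were called higher in 6 of 8 cases (17.1% of all genes tested). Nck2, an adaptor that links receptors to actin, had counts of 254, 315 and 255 (WT) against 896, 1006 and 793 (KO) and rose by 1.46 (SE 0.13), and its paralogue Nck1 on chromosome 9 rose by 1.39 (SE 0.13). Tgfbrap1 (1.33, SE 0.15), Stk17b (0.74, SE 0.15), Mob4 (0.50, SE 0.12) and Trak2 (0.49, SE 0.10) were also called higher. Stradb (0.56, SE 0.16) and Rftn2 (0.80, SE 0.36) were not.

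The BMP receptor gene Bmpr2 and the Wnt receptor gene Fzd7 lie near the end of the segment and were not called. Fzd7 had counts of 1404, 1127 and 1350 (WT) against 2037, 1541 and 1963 (KO), with overlapping CPM (0.25, SE 0.19). Bmpr2 had counts of 647, 718 and 640 (WT) against 802, 1133 and 984 (KO), with KO just above WT in CPM (0.27, SE 0.12). Of 14 other receptor genes of both pathways that were tested, 7 were called higher (17.1% of all genes tested). Fzd1 (2.86, SE 0.28) and Fzd2 (2.28, SE 0.28) were at the top. Their median was 0.58, against 0.26 for both members.

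Over all role lists, 46 members had a median log2 fold change of 0.71, 42 of them above 0, and 23 were called higher and 1 lower. Their 107 tested partners outside the segment had a median of −0.08, 45 of them above 0. Of these partners, 21 were called higher and 18 lower, where 17.1% and 12.6% of all genes tested were.

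**Figure D4:**
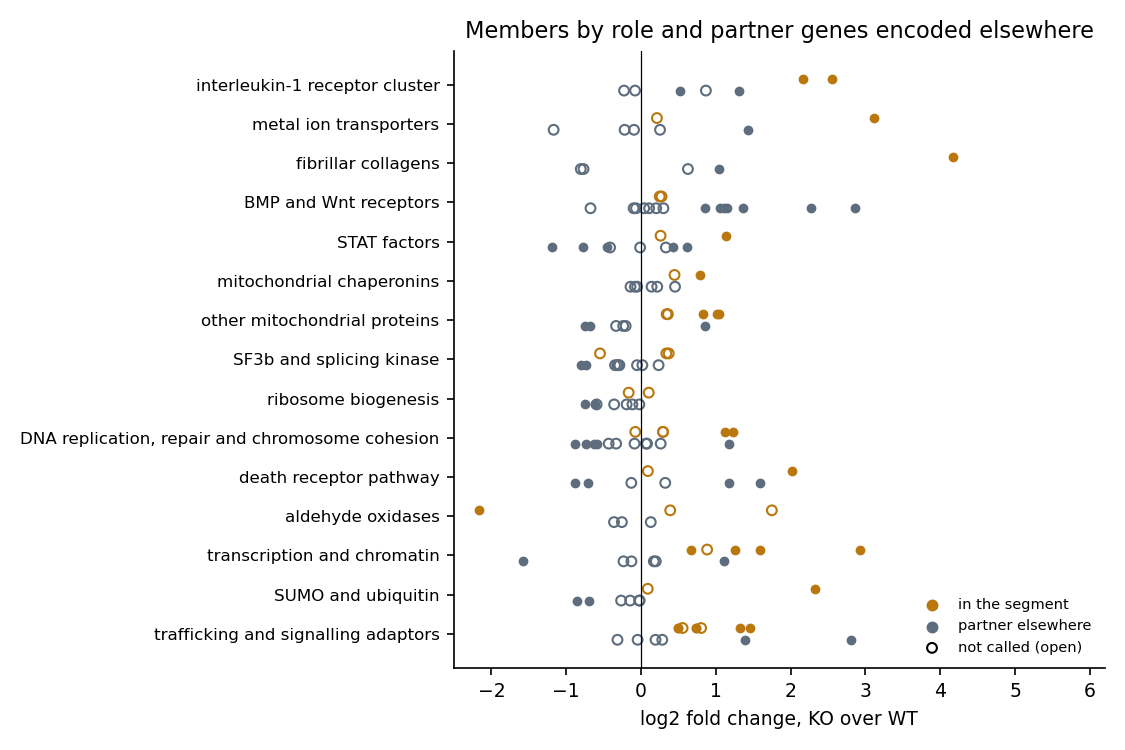
Log2 fold change of KO over WT for the members of 15 role lists (orange) and for their partner genes outside the segment (grey-blue), with filled points for genes called and open points for genes not called. Most orange points lie right of 0, with Col5a2 at 4.17 and Aox3 at −2.17 as the extremes, and the grey-blue points lie on both sides.

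In 8 pairs of members, the genes have 5′ ends within 1000 nt of each other on opposite strands. Both genes had values above 0 in each of the 8 pairs. Tyw5 (1.33, SE 0.11), of tRNA wybutosine synthesis, and Maip1 (1.5, SE 0.11), a partner of a mitochondrial protease, had similar values, as had Ppil3 (0.34, SE 0.15) and Nif3l1 (0.34, SE 0.19) and Trak2 (0.49, SE 0.10) and Stradb (0.56, SE 0.16). In other pairs the values lay further apart. Pms1 had 1.22 (SE 0.13) and Ormdl1, a regulator of sphingolipid synthesis, 0.49 (SE 0.13). Tgfbrap1 had 1.33 (SE 0.15) and AI597479 0.65 (SE 0.10). The lincRNA 4930558J18Rik had 0.52 (SE 0.18) and its partner 1700066M21Rik 1.56 (SE 0.13), and Kdelc1 had 0.11 (SE 0.12) where Bivm had 0.59 (SE 0.12). Genes whose starts lie side by side thus did not always have similar values, and these differences were not tested.

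The 11 members that are not protein coding had a median of 0.52 at a median of 27 counts, and the only one called was Gm37531. 8 of them lie within another member on the same strand, such as Gm38228 in Nck2 and Gm37626 in Gulp1, and reads of the host could be counted to them. Gm38228 had 0.53 (SE 0.26) where Nck2 had 1.46, and Gm36955 had 0.97 (SE 0.38) where its host Pgap1 had −0.05 (SE 0.10).

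Members with an mESC m6A site differed less between KO and WT than those without. The 29 members with a site had a median log2 fold change of 0.36, with 12 called higher. The 60 without one had a median of 0.87, with 29 called higher and 2 lower. Calls over all genes tested came to 17.1% higher and 12.6% lower. Members with sites had a median of 1572 counts and those without 187.7, so the split also separates abundant from rare transcripts. Among members with a mean of at least 500 counts, the medians were 0.37 (27 with a site) and 0.50 (21 without). Among the other genes they were −0.01 with and −0.04 without a site. The part of abundance in the difference was not tested further. With heart sites in place of mESC sites the order turned round, with 0.69 for the 42 members with a site and 0.56 for the 47 without.

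Values were also set against level. Spearman's rho of log2 fold change with WT level was −0.49 across the 89 members and −0.22 across the other 15400 genes. Genes share libraries and are not independent. WT level is also the denominator of the fold change, so noise in WT alone pushes rho below 0. The count limit on the mean over WT and KO adds to this, and what remains was not tested. In bins of mean count, the medians were 1.03 in members and −0.01 in the other genes at 10 to 100 counts, 0.54 and 0.08 at 100 to 500, 0.55 and −0.01 at 500 to 2000 and 0.25 and −0.16 above 2000. Members thus lay above the other genes in each bin. The lowest bin includes members that met the count limit only through KO, such as Col5a2. Before 58 Mb the medians were 0.59 in 19 members with a site and 1.01 in 47 without, and after 58 Mb they were 0.27 in 10 and 0.09 in 13.

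**Figure D5:**
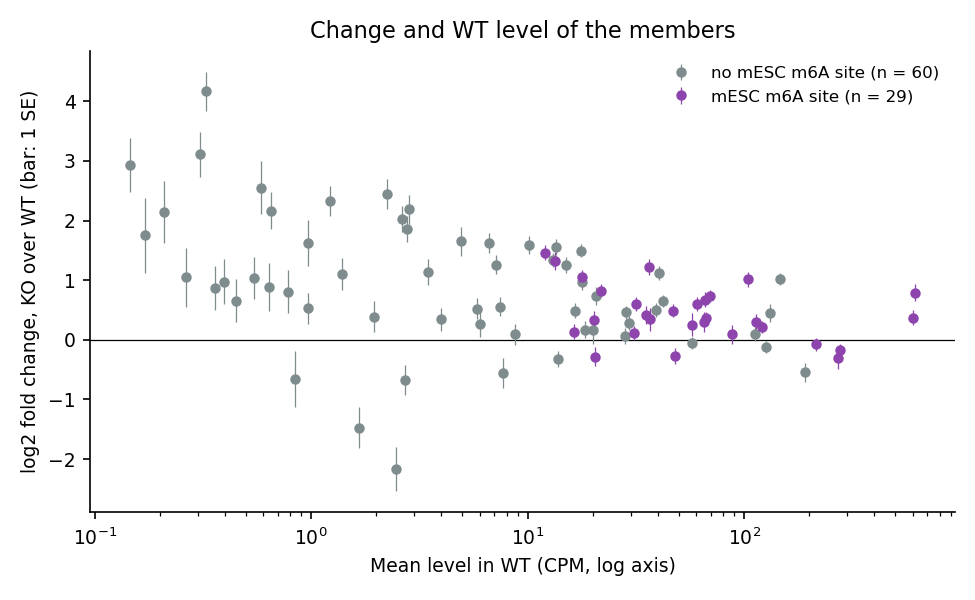
Log2 fold change of KO over WT, with bars of 1 SE, against the mean level in WT in CPM on a log axis, for the 29 members with an mESC m6A site (purple) and the 60 without (grey). Purple points begin at 12.0 CPM with Nck2, which also has the highest purple value, 1.46, and all values above it belong to grey points.

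Members with many sites mostly had small values. Fzd7 with 17 sites had 0.25, Slc39a10 with 7 sites 0.21, Sgo2a with 6 sites −0.08 and Ercc5 with 5 sites 0.29, none of them called. Members with few sites and larger values were Nck2 with 1 site (1.46), Tgfbrap1 with 2 (1.33) and Pms1 with 1 (1.22). Col5a2, Slc40a1, Il1r1 and Mfsd9 had no mESC site at all, although Il1r1, Slc40a1 and Col5a2 had 12, 8 and 3 sites in heart.

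With the replicate number as a block, 48 members were called higher (23.5% of all genes tested) and 3 lower (20% of all genes). All 41 and both 2 of the calls without the block were among them. Added were Mrps9, Nemp2, Ormdl1, Sf3b1, Hspe1, Aox2 and Stradb (0.36 to 1.86) as higher and Clk1 (−0.53, SE 0.12) as lower. Gm37531 was called lower in some fits only, while Aox3 was called lower in every fit that held it. Since 3 samples per group were sequenced and the p-values measure only the spread between these samples, the calls say nothing on how other WT or KO lines would compare.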

How the data were processed

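RNA-seq was analysed for 3 WT and 3 Mettl3 KO mESC libraries of biological replicates, grouped by their labels. The authors aligned single-end reads to GRCm38 with STAR and counted them per gene with HTSeq (version 0.12.4) on the reverse strand, and deposited these counts. No-feature reads, 17.6 to 22.6% in a library, stayed out of library sizes. The m6A sites were deposited with a score per site from m6Aboost, which the authors ran on PureCLIP peaks. Only the mESC list and the 1 µg mouse heart list were used. The HEK293T list, the heart lists at lower input and the miCLIP2 libraries were not used here.

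Genes were placed with GENCODE M21 (55240 of 56196, 98.3%), and site windows were read from the RefSeq GRCm38 genome. Counts were filtered with filterByExpr, scaled by TMM and tested with edgeR (version 4.0.16) by the quasi-likelihood F-test with Benjamini-Hochberg adjustment over 15731 genes, and a call needed an adjusted p no higher than 0.01. The SE was the log2 fold change divided by the square root of F. DESeq2 (version 1.42.0) was an alternative. R 4.3.3, Python 3.11.15 and pandas 2.3.3 were used, and the fit was tested on simulated data. At 22746733 to 27254245 gene counts a library, values below 10 are imprecise, and reads that fit several genes can be split between them.

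The members, gene lists and bounds were chosen with earlier results of these data known. Named genes were those of the role lists and their partners, the 10 highest and 10 lowest members with a mean of at least 100 counts, the 3 genes nearest each edge and the count limit on both sides, the 5 members with most mESC sites, and Mettl3. The head-to-head pairs, other named members and single cell type markers were chosen after their values were seen. Deviations of KO and WT samples with the same replicate number from their group means correlated at 0.122, 0.464 and 0.303, against −0.342 to 0.110 for other pairs. For replicate 1 the value was close to that of WT replicate 3 with KO replicate 1 (0.110). A pairing by number thus rests on the data alone and is weakest for replicate 1. The main fit did not use it, and the block was an alternative. Calls given above are from the fit without the block unless another fit is named. Other normalisation, filters, thresholds, bounds, flanks, site lists, the replicate block and leaving out each replicate were tried. Some genes that these rules name are not reported here, and they stay in all counts and medians.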

Additional observations from a re-analysis of the deposited data

How the results depend on the processing

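Over the alternatives, 80 of 107 values kept their direction and rough size, where counts within a factor of 1.5 were taken as the same. Between 32 and 50 members were called higher. The fit with a replicate block gave 6837 changed genes instead of 4669, with 48 members higher and 3 lower at a median of 0.61, and the block ended no call of a member. DESeq2 called 5481 genes, with 43 members higher and 3 lower. At an adjusted p of 0.05, 7336 genes changed. Leaving out 1 replicate gave 2761 to 5412 genes, with 3108 without WT replicate 1, 2761 without KO replicate 1 and 3109 without KO replicate 3. It gave 1 to 3 members called lower, Gm37531 being lost without WT replicate 1 or any 1 KO replicate. With library size only, 1 member was called lower and the member median was 0.70. With at least 10 counts in every library, 1 was called lower, the segment exceeded its flanks by 0.34 instead of 0.44, and members with sites differed from those without by −0.29 instead of −0.52. At a mean of at least 50 counts, 0 were called lower, since Aox3 and Gm37531 fall below it, and these values were 0.50 (member median), 0.30 and −0.34. Among protein-coding genes, 1 was called lower and the site difference was −0.67. Flanks of 5 Mb gave 0.31. The member median was 0.80 for 42 to 58 Mb and 0.85 for 50 to 58 Mb, the latter chosen after seeing the data. The site difference was −0.58 to −0.38 when 1 replicate was left out and −0.13 at a mean of at least 500 counts (chosen after seeing the data). With heart sites it turned to 0.14, at 47.2% of members with a site. The cause was not tested.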
